A study of Mus musculus with 2 samples.

Results

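Kinesins, cytoplasmic dyneins and dynactin are the motors that carry cargo along microtubules, and their genes were chosen by symbol: kinesin heavy chains (Kif), kinesin light chains (Klc), dynein chains (Dync and Dynl) and the Dctn subunits of dynactin. Of the 32285 genes in the files, 64 carried such a symbol, and the 58 with at least 100 UMIs (unique molecular identifiers, 1 per captured RNA molecule) over both libraries were taken as members. Kif12 and Kif2b had no UMI, and Kif14 (76 UMIs), Kif28 (74), Kif18b (27) and Kif2c (19) were left out by the minimum. The members just above it were Kif20b (162 UMIs) and Kif4 (166).

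Nuclei came from flash-frozen hippocampus of mice aged 8 months and were profiled by 3' droplet sequencing of nuclear RNA. Both groups carried 5XFAD, a transgenic mouse model of amyloid plaques driven by the neuronal Thy1 promoter. The first library was 5XFAD alone, and the other was labelled 5XFAD x MR1 KO, that is, also without MR1, which presents metabolites to MAIT cells. The series title names dystrophic neurites, the swollen processes near plaques, as its subject. Each library pooled 1 female and 1 male mouse, so every comparison below is between 1 library and 1 library, carries no test, and gives 95% intervals that cover counting error only.

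Kinesins mostly move towards the growing ends of microtubules, which in axons carries cargo away from the cell body, and cytoplasmic dynein with its cofactor dynactin moves the other way. Kinesin-1 is a pair of heavy chains (Kif5a, Kif5b, Kif5c) with light chains that bind cargo. Kinesin-2 also drives transport in cilia, kinesin-3 carries vesicle precursors, kinesin-13 takes microtubules apart, and several other kinesins work in the mitotic spindle. Neurons depend on these motors because their processes are long, and oligodendrocytes use them to supply myelin sheaths.

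The results below turn on a pair of dynein light chains, Dynll1 and Dynlrb1, and on a pair of kinesin-2 motors, Kif3a and Kif17, so the 250 bases before the start of each are shown first. They are RefSeq promoter sequences of build GRCm38.p6, on the coding strand: Dynll1 at chr5:115300991-115301240 (minus strand), Dynlrb1 at chr2:155236283-155236532 (plus), Kif3a at chr11:53567119-53567368 (plus) and Kif17 at chr4:138262001-138262250 (plus). The RefSeq start used for Kif17 lies inside the gene as GENCODE draws it. Capitals mark matches, on either strand, to the GC box GGGCGG, the CCAAT box CCAAT, the TATA box TATAAA and the cAMP-response core TGACG.
Dynll1: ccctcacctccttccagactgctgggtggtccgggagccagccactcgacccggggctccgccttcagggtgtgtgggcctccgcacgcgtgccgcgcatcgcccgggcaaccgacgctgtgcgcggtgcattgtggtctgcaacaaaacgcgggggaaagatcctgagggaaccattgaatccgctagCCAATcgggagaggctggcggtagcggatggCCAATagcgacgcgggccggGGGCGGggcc
Dynlrb1: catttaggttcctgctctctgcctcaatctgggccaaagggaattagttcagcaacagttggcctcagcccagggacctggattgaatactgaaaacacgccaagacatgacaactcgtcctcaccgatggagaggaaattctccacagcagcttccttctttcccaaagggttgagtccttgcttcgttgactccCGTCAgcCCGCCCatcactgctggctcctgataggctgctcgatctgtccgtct
Kif3a: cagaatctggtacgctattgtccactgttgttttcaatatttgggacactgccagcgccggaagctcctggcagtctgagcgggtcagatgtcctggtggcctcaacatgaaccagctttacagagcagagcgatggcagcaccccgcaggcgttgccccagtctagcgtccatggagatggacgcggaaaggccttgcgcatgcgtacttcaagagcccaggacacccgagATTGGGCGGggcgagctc
Kif17: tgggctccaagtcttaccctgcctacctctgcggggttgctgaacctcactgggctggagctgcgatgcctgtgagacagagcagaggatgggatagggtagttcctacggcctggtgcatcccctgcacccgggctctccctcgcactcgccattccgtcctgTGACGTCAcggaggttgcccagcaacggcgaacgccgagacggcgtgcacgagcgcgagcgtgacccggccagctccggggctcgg

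Dynll1 had 1 GC box and 2 CCAAT boxes in these letters, and 68.8% of its bases were G or C. Dynlrb1 had 1 GC box and 1 TGACG, with 53.2% G or C. In Kif3a, the GC box and the CCAAT box overlapped. The TGACG matches of Kif17 lie on opposite strands and overlap within the palindrome TGACGTCA. None of the 4 windows held TATAAA. Promoters were found for 44 of the 58 members, 51 sequences in all, and 34 of them held the GC box, against 32.7% of 32851 promoters of the same length. CCAAT was in 20 of the 51 (33.8% of all promoters), TATAAA in 4 (12.4%) and TGACG in 20 (17.8%). A match is a match of letters and no binding was measured here.

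The libraries differed in more than their label. Before filtering they held 25238 and 26212 barcodes (182 in common) with 106861726 and 85678909 UMIs. After filtering, 12035 nuclei (median 3704 UMIs) were kept for 5XFAD and 17157 (median 2518) for the library labelled MR1 knockout, with 56335736 and 56201790 UMIs. Mr1 RNA went against the label: 33 UMIs for 5XFAD and 67 for the library labelled MR1 knockout, a ratio of 2.04 (1.32 to 3.19), or a log2 ratio of 1.01 that was -0.02 when each nucleus was thinned to 1000 UMIs. Which part of Mr1 the allele lacks is not given in the sources used here, so 3' counts may not read it, and the library is called by its label throughout. The cell makeup differed too. Striatal medium spiny-like neurons, which the hippocampus should lack, made up 1133 nuclei of the 5XFAD library and 4 of the other. An unnamed cluster led by Smoc1 and Otof made up 16 and 1697. Clusters held nearly wholly by 1 library (8 clusters) took 2619 and 5552 nuclei. Classes were rebuilt from marker genes, with the motor genes kept out of the clustering, and 20.8% and 26.7% of nuclei stayed unnamed. Where a class is named below, the name stands for nuclei that are like it by those markers.

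Class profiles of the motor genes were compared first, within each library, in CPM (UMIs of the gene per 1000000 UMIs of the class). The classes were dentate granule, CA1 pyramidal, CA2/CA3 pyramidal, subicular or cortical excitatory and inhibitory neurons, oligodendrocytes and their precursors, microglia and astrocytes. Of the 45 members with at least 100 UMIs over these classes in each library, 26 had the same highest class in both libraries. That class was oligodendrocytes for 12 of them, microglia for 6 and inhibitory neurons for 4. Some of these calls rest on few UMIs, such as Klc4 in microglia (6 and 13 UMIs). No ranking of classes was made over all genes, so the counts here do not set the members apart from other genes. Ranked by UMIs per nucleus instead, 31 of the 45 had the same highest class in both libraries, which was subicular or cortical neurons for 13, CA2/CA3 neurons for 11, oligodendrocytes for 2 (Kif13a and Kif13b) and microglia for 0. Mean depth per nucleus spanned 4.78-fold over the classes for 5XFAD and 4.75-fold in the other library, lowest in oligodendrocytes (1482 and 1050 UMIs) and highest in CA2/CA3 neurons (7086 and 4989), so a high CPM in glia does not by itself mean more molecules per nucleus. Class levels below are in CPM unless given per nucleus.

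**Figure D1:**
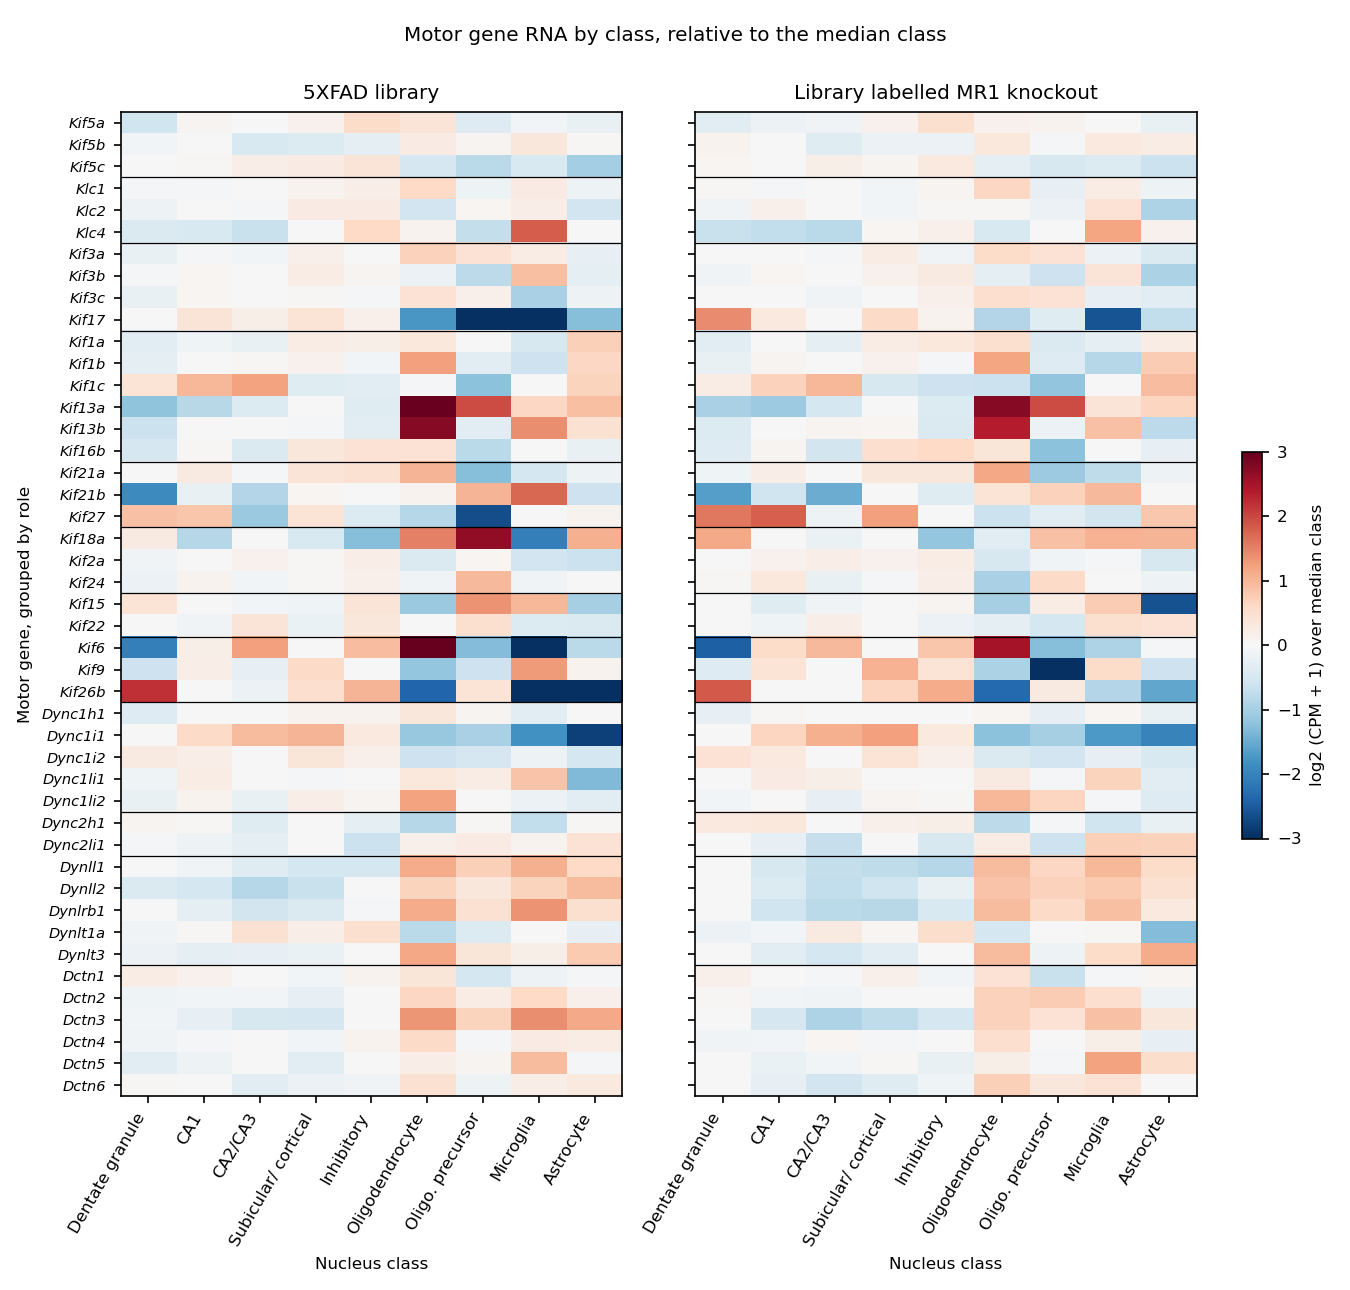
Heat maps of 45 motor genes (rows, grouped by role) in 9 nucleus classes (columns), 1 map per library. Colour is the log2 of CPM plus 1 over the median class of that gene, from -3 to 3. Kif13a, Kif13b and Kif6 are darkest in oligodendrocytes, Kif26b in dentate granule neurons, and Dync1i1 is pale or red in neurons and blue in glia, in both maps.

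Among the kinesin-3 motors, Kif13a, which carries endosomal cargo, stood out in oligodendrocytes. Its level there was 361 CPM (328 to 397) for 5XFAD and 330 CPM (295 to 369) for the library labelled MR1 knockout, 8.02 and 6.77 times its median class. Oligodendrocyte precursors came next with 178 and 191 CPM, and the dentate granule level was 18.9 and 24.2 CPM. Oligodendrocytes were also its highest class per nucleus, with 53.5 and 34.7 Kif13a UMIs per 100 nuclei, although they were the shallowest class.

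Kif13b, a close relative that binds the scaffold protein Dlg1, had 366 and 329 CPM in oligodendrocytes, but 43 and 56.2 CPM in their precursors. For Kif13a the precursors lay between the oligodendrocytes and the neurons, and for Kif13b within the range of the neuron classes (34.5 to 67.7 CPM over both libraries). Kif1b, which moves synaptic vesicle precursors and mitochondria, reached 718 and 706 CPM in oligodendrocytes and 473 and 527 CPM in astrocytes, against 248 to 337 CPM in the neuron classes, but per nucleus it was highest in subicular or cortical neurons. Kif1c had its highest class in CA2/CA3 neurons (25.7 and 31.3 CPM). Kif1a, a carrier of synaptic vesicle precursors, varied little, from 74.5 to 171 CPM for 5XFAD and from 86.6 to 166 CPM in the other library.

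Kif6 was also highest in oligodendrocytes by CPM, at 116 (97.5 to 137) and 96.8 (78.2 to 118). Per 100 nuclei it was highest in CA2/CA3 neurons, with 19.2 and 16.3 UMIs against 17.2 and 10.2 in oligodendrocytes. It had 27.1 and 32.7 CPM in CA2/CA3 neurons, 12.6 and 24.3 CPM in CA1 neurons, and 1.91 and 2.16 CPM in dentate granule neurons. In oligodendrocyte precursors Kif6 had 2 and 4 UMIs, so the oligodendrocyte level was not shared by their precursors. Kif21a, a kinesin-4 that limits microtubule growth, had 357 and 441 CPM in oligodendrocytes and 72.3 and 92.7 CPM in the precursors, and was highest per nucleus in subicular or cortical neurons. Its relative Kif21b had its highest level in microglia, 93.1 CPM (64.9 to 130) and 53.5 CPM (39.2 to 71.4), from 35 and 46 UMIs, and its lowest in dentate granule neurons (6.59 and 7.79 CPM). Per 100 nuclei Kif21b had 14.2 and 5.98 UMIs in microglia, below the 18.9 and 12.3 of subicular or cortical neurons.

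Kif26b, a kinesin without motor activity, had its highest CPM of the 9 classes in dentate granule neurons, with 162 CPM (152 to 173) and 128 CPM (121 to 136), 4.65 and 3.66 times its median class. The next class, inhibitory neurons, had 71.6 and 77.5 CPM, and in the library labelled MR1 knockout it was the highest per nucleus (31.9 UMIs per 100 nuclei, against 28.8 in dentate granule neurons). In oligodendrocytes it had 7 and 6 UMIs. Kif17, a kinesin-2 that carries NMDA receptor vesicles in dendrites, lay between 10.9 and 14.8 CPM in the 5 neuron classes of the 5XFAD library. No oligodendrocyte precursor or microglial nucleus of that library had a UMI of it. A count of 0 among 233 precursors and 246 microglia allows up to 7.21 and 9.82 CPM. In the other library Kif17 had 6 UMIs in the precursors (9.12 CPM, 3.35 to 19.8) and 1 in microglia. The striatal-like neurons of the 5XFAD library had 41.8 CPM of Kif17.

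The kinesin-1 heavy chains differed among themselves. Kif5a and Kif5c, the forms enriched in neurons, were highest in inhibitory neurons (Kif5a 119 and 125 CPM, Kif5c 202 and 204 CPM). Kif5b, the form found in most tissues, was highest in microglia in the first library (160 CPM) and in oligodendrocytes in the other (148 CPM). The light chain Klc1 was highest in oligodendrocytes by CPM (163 and 211), but per nucleus in subicular or cortical neurons in the first library and in CA2/CA3 neurons in the other. Kif2a, the kinesin-13 of neurons, ranged only from 56.2 to 101 CPM and from 61.1 to 101 CPM.

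Among dynein-1 subunits, the intermediate chains parted. Dync1i1, the neuronal intermediate chain, was highest in subicular or cortical neurons (481 and 516 CPM) and lowest in astrocytes (32.9 and 54.3 CPM), and its 9 classes stood in the same order in both libraries (Spearman's rho 1.00 over the classes, each library clustered jointly with the other). Dync1i2, the form found more widely, ranged from 112 to 220 CPM and from 123 to 247 CPM. Dync1h1, the heavy chain that holds the motor, stayed within 82.9 to 139 CPM and 103 to 129 CPM over all 9 classes. Dync2h1, the heavy chain of the dynein of cilia, was lowest in oligodendrocytes (65.6 and 62.8 CPM) and 128 and 134 CPM in dentate granule neurons.

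Rare classes held a few members at high levels. Kif19a, which trims microtubules at the tips of cilia, had 12 UMIs in 31 committed oligodendrocyte precursors of the 5XFAD library (153 CPM) and 12 in 90 of the other (80.1 CPM), and its highest CPM among the 9 main classes was in astrocytes (13.6 and 9.05 CPM, from 7 and 4 UMIs). Kif9 and Kif27, linked to motile cilia, reached 167 and 121 CPM in choroid plexus nuclei, of which 94 came from the library labelled MR1 knockout and 1 from the 5XFAD library. The mitotic kinesins Kif11, Kif15, Kif20a, Kif20b, Kif22 and Kif23 together with Kif4 and Kif18a had 74 UMIs in the 233 oligodendrocyte precursors of the 5XFAD library, and 51 of these UMIs came from 5 nuclei with at least 5 each. In the other library 451 precursors held 29 UMIs of the same genes and no nucleus had 5 or more. That contrast rests on those 5 nuclei.

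**Figure D2:**
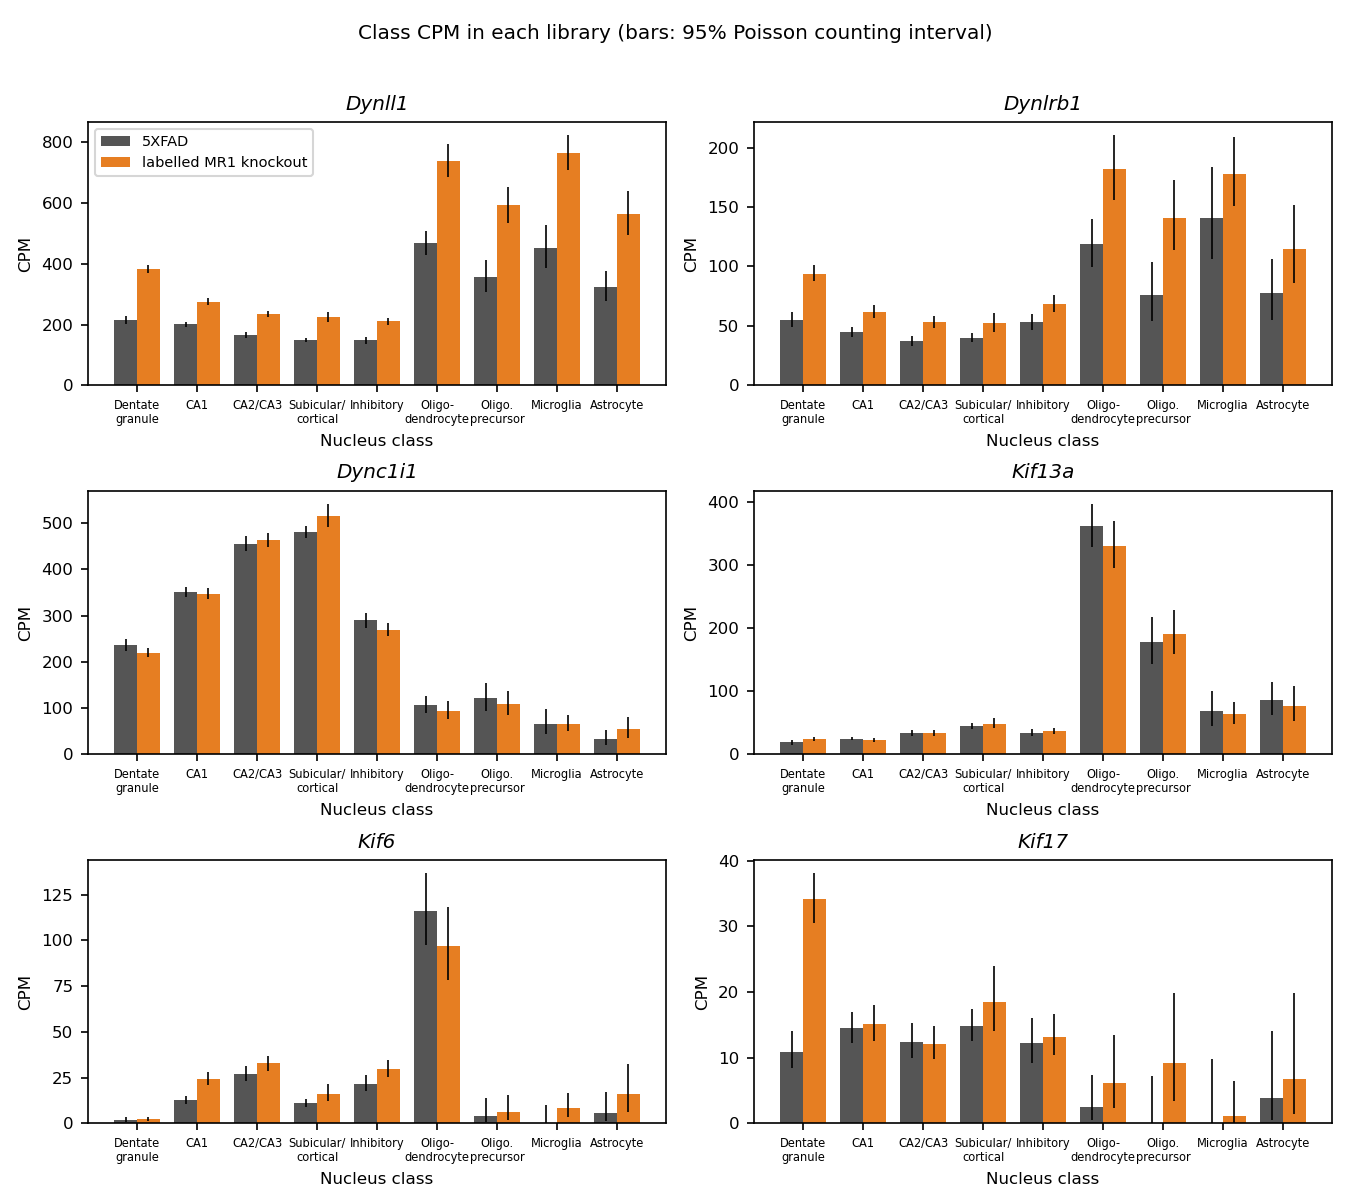
CPM of Dynll1, Dynlrb1, Dync1i1, Kif13a, Kif6 and Kif17 in 9 nucleus classes, grey for the 5XFAD library and orange for the library labelled MR1 knockout, with 95% Poisson counting intervals. Orange Dynll1 bars stand above grey ones in each class. Kif13a and Kif6 have their highest CPM in oligodendrocytes in both colours. Kif17 has 10.9 and 34.2 CPM in dentate granule neurons.

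The libraries were then compared over all kept nuclei, as the CPM labelled MR1 knockout over the 5XFAD CPM. Of the 58 members, 54 had at least 100 UMIs there (Kif20b, Kif4, Kif7 and Klc3 had fewer). Their median log2 ratio was 0.16, against 0.12 over the 16844 genes tested, and 44 of the 54 had a ratio above 1, where 71.3% of all genes tested did. Past 1.5-fold in either direction were 3 of the 54, Dynll1, Dynlt1b and Dynlt1f, all higher, against 9.55% of all genes tested. These shares depend on the scaling: TMM factors, which use the bulk of genes rather than the total, shifted every log2 ratio by -0.13, brought the median of the members to 0.03 and left 30 of the 54 above 1.

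Among the dynein light chains, Dynll1 and Dynlrb1 were higher in the library labelled MR1 knockout, but not all light chains were. Their ratios overlapped those of other roles, given below. Dynll1, which holds partner proteins together in dynein and in many other complexes, had 10917 UMIs (194 CPM) for 5XFAD and 16630 UMIs (296 CPM) in the other library. The ratio was 1.53 (1.49 to 1.56), female mice 1.49 and male mice 1.55. Dynlrb1, a light chain of the roadblock type, had 2845 and 3968 UMIs (50.5 and 70.6 CPM), a ratio of 1.40 (1.33 to 1.47), female mice 1.38 and male mice 1.36. Mice of a library were told apart by Xist and Y-linked RNA and shared a capture, so they are not replicates. Dynll2, the near copy of Dynll1, had a ratio of 1.21 (1.15 to 1.26). Over the 9 light chains the median log2 ratio was 0.47, and their summed level was 351 and 493 CPM. Under either scaling 8 were above 1. With CPM 71.3% of all genes tested were above 1, and the share with TMM scaling was not computed. Both the median and the count take the Dynlt1 copies as separate members. Dynlt1a, Dynlt1b, Dynlt1c and Dynlt1f are nearly identical copies whose reads cannot be split with confidence: Dynlt1b had 90 and 210 UMIs (ratio 2.34, 4.75 for female and 0.744 for male mice), Dynlt1f 109 and 184 UMIs (ratio 1.69), and Dynlt1a, the most read of them, 1231 and 1227 UMIs (ratio 0.999).

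**Figure D3:**
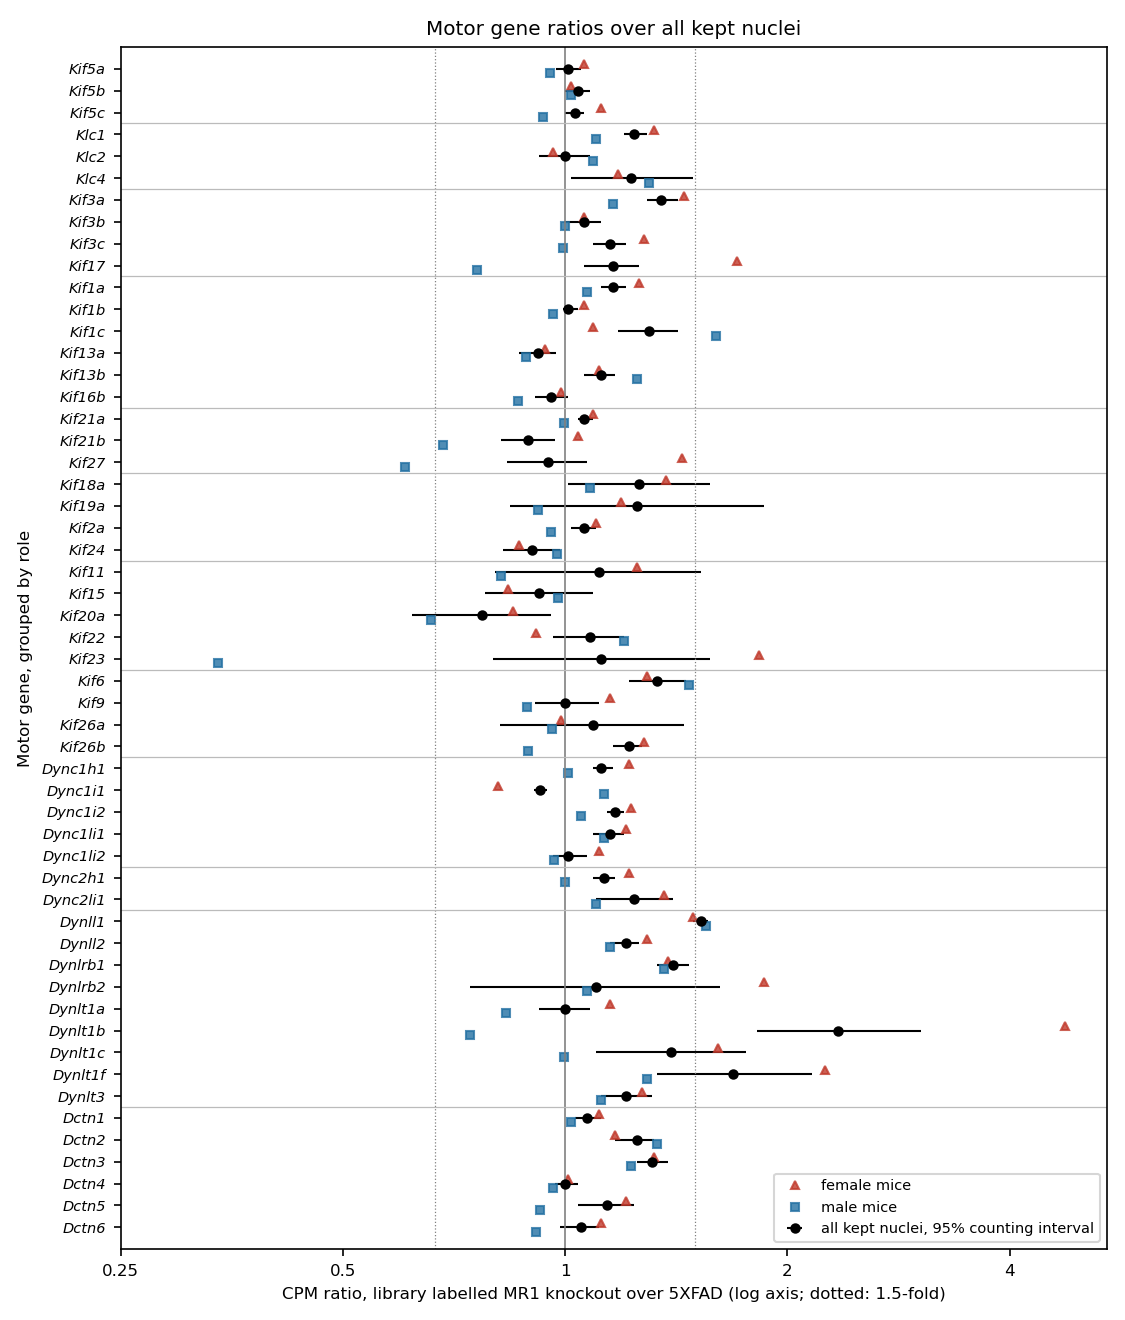
CPM ratio labelled MR1 knockout over 5XFAD for the 54 motor genes with at least 100 UMIs (log axis, dotted lines at 1.5-fold). Black points with 95% counting intervals are all kept nuclei, red triangles the female mice and blue squares the male mice. Dynll1 and Dynlrb1 have the 3 symbols close together above 1.3, whereas Kif17, Kif27, Dync1i1 and Dynlt1b have the mice on opposite sides of 1.

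The light chain result changes with the measure. Counted per nucleus rather than as CPM, Dynll1 gave 90.7 UMIs per 100 nuclei for 5XFAD and 96.9 in the other library, and Dynlrb1 gave 23.6 and 23.1. Over all kept nuclei the ratios per nucleus were 1.07 and 0.978, while the mean depth of a nucleus was 4681 and 3276 UMIs, a ratio of 0.7. Classes differed in this. CA2/CA3 neurons had 118 and 117 Dynll1 UMIs per 100 nuclei, but astrocytes had 167 UMIs in 252 nuclei for 5XFAD and 249 in 251 in the other library. Microglia had 170 in 246 and 657 in 769. Per nucleus, both genes also varied less over the classes than depth did. Dynll1 ran from 66.3 to 118 UMIs per 100 nuclei over the 9 classes of the first library and from 77.5 to 117 in the other, and Dynlrb1 from 15.9 to 27.7 and from 19.1 to 28.3. In the shallow unnamed cluster 11 (599 and 260 nuclei, median 682 and 658 UMIs) there were 65.1 and 88.8 Dynll1 UMIs per 100 nuclei.

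Of the 45 members with at least 100 UMIs in each library, Dctn3, Dynll1 and Dynlrb1 were those that varied by less than 2-fold per nucleus over the classes in both libraries, with Dynll2 in addition in the library labelled MR1 knockout. Such spans were computed for members only, so they do not set these genes apart from genes outside the list. Among those with a UMI in every class of the library, the median member varied 6.5- and 5.85-fold. Members with no UMI in a class, such as Kif17 and Kif26b for 5XFAD, have no such value and were left out of the median. Dync1h1 varied 5.83- and 4.55-fold, close to the span of depth itself. The number of Dynll1 UMIs per Dynlrb1 UMI lay between 2.79 and 4.67 over the classes of the first library and between 3.06 and 4.88 in the other.

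**Figure D4:**
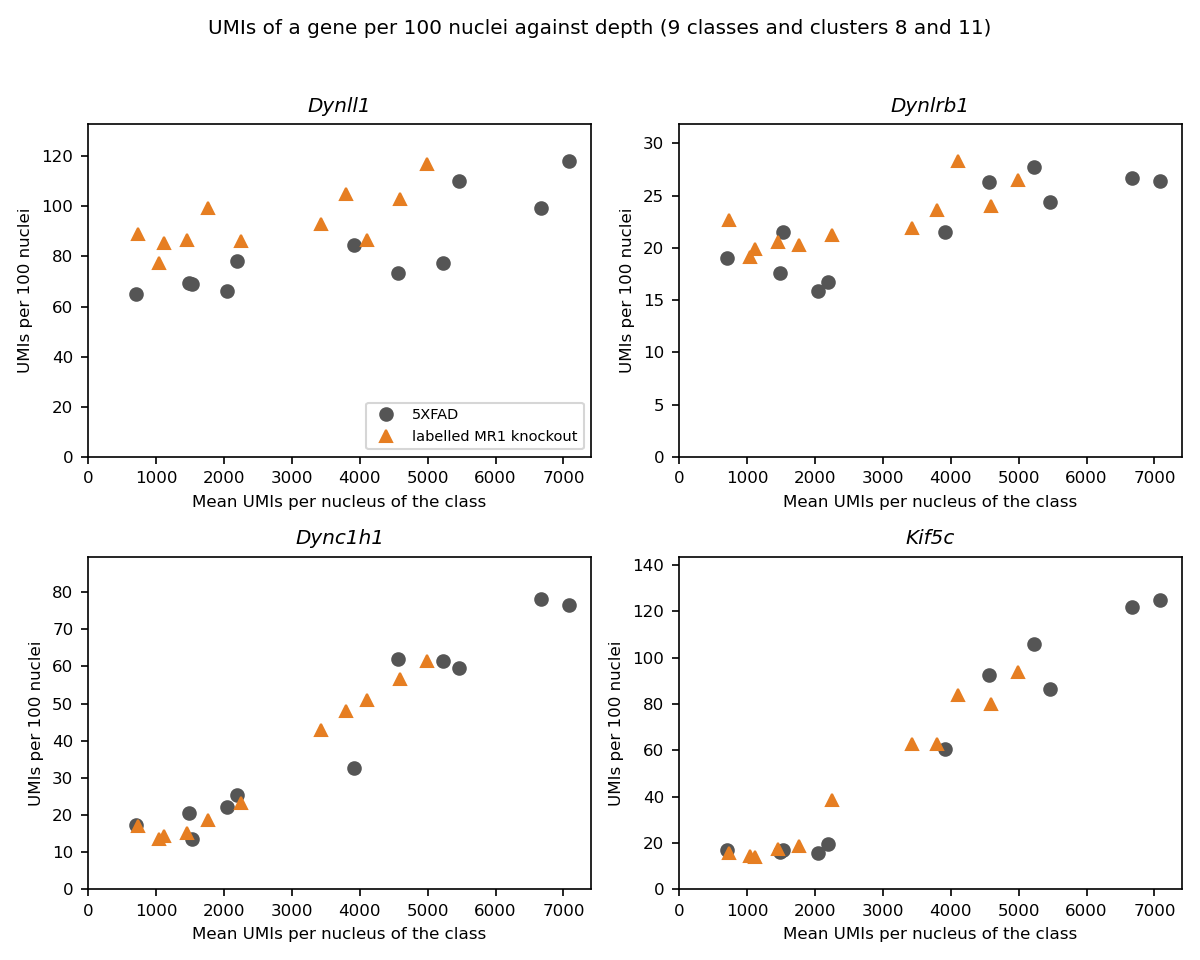
UMIs of a gene per 100 nuclei against the mean UMIs per nucleus, for 9 classes and the unnamed clusters 8 and 11 (grey circles 5XFAD library, orange triangles library labelled MR1 knockout). Dynll1 and Dynlrb1 differ by less than 2-fold between the shallowest and the deepest class. Dync1h1 and Kif5c climb with depth in both libraries.

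The libraries also differed in mitochondrial share. Over all barcodes its median was 3.43% for 5XFAD and 1.41% in the other library, and 1.82% and 1.2% in the kept nuclei. With no limit on it the Dynlrb1 log2 ratio was 0.07, and under a limit of 1% it was 0.68, against 0.48 under the limit of 5% used. For Dynll1 these values were 0.33, 0.81 and 0.61. With no limit, doublet removal and clustering were also redone. Kif13a moved with the limit too, as given below, and the shift over all genes was not computed.

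The cargo-binding light chain Klc1 had 6341 and 7869 UMIs, a ratio of 1.24 (1.20 to 1.29), while Klc2 had 1199 and 1196 UMIs. The kinesin-1 heavy chains lay close to 1, with ratios of 1.01 (0.972 to 1.05) for Kif5a, 1.04 (1.00 to 1.08) for Kif5b and 1.03 (1.00 to 1.06) for Kif5c. All 3 were below 1 under TMM scaling. Of the kinesin-3 motors, Kif1b had 1.01 (0.993 to 1.04), Kif1a 1.16 (1.12 to 1.21) and Kif1c 1.30 (1.18 to 1.42).

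Kif3a, which pairs with Kif3b in kinesin-2, had 3154 and 4252 UMIs (56 and 75.7 CPM), a ratio of 1.35 (1.29 to 1.42). Female mice had 1.45 and male mice 1.16. Its partner Kif3b had 1.06 (0.998 to 1.12), and Kif3c, which also pairs with Kif3a, 1.15 (1.09 to 1.21). Per 100 nuclei, Kif3a gave 26.2 and 24.8 UMIs.

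Among the dynein-1 subunits and the Dctn subunits of dynactin the ratios ran from 0.926 for Dync1i1 to 1.31 for Dctn3. Dync1h1 had a ratio of 1.12 (1.09 to 1.16), Dync1i2 of 1.17 (1.14 to 1.20), Dync1li1 of 1.15 (1.09 to 1.20) and Dync1li2 of 1.01 (0.964 to 1.07). Dync1i1 had 18644 and 17224 UMIs, a ratio of 0.926 (0.907 to 0.945), but 0.811 for female and 1.13 for male mice. Within the neuron classes the Dync1i1 ratio ran from 0.927 to 1.07, and the part of the unequal cell makeup in the value over all nuclei was not tested. Of the 6 Dctn subunits, 6 were above 1 with CPM and 3 with TMM scaling. With CPM 71.3% of all genes tested were above 1, and the share with TMM scaling was not computed. Further dynactin subunits, such as Capza2, were counted with the adaptors below. Of the Dctn subunits, Dctn3 had the highest ratio, 1.31, at 54 (52.1 to 55.9) and 70.9 CPM (68.7 to 73.2). Dctn2 had 35.6 (34 to 37.1) and 44.3 CPM (42.6 to 46.1), while the ratio of Dctn1, the arm that grips the microtubule, was 1.07 (1.03 to 1.12). Dctn4, Dctn5 and Dctn6, subunits of the pointed end, had 1.00 (0.968 to 1.04), 1.14 (1.04 to 1.24) and 1.05 (0.985 to 1.11).

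How many members were lower in the library labelled MR1 knockout depended on the scaling. Above 1 were 44 of the 54 with CPM, against 71.3% of all genes tested, and 30 of the 54 with TMM scaling. Kif13a had 2436 and 2230 UMIs, a ratio of 0.918 (0.866 to 0.972). Its log2 ratio of -0.12 was 0.02 under a mitochondrial limit of 1% and -0.01 without the clusters held by 1 library, and within oligodendrocytes, where it is highest, its ratio was 0.916 (0.79 to 1.06). Kif20a had 0.771 (0.62 to 0.956) from 199 and 153 UMIs, and Kif24, a kinesin-13 of centrioles, 0.901 (0.824 to 0.985).

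Within the classes, the background of genes past 1.5-fold set how each count reads. In dentate granule neurons (1472 and 4108 nuclei) 7 of 41 members were past 1.5-fold, all higher, against 14.6% of the 11059 genes tested, and the median log2 ratio was 0.20 against 0.14. They were Kif17, Dynll1 (1.78), Dynlrb1 (1.71), Dctn3 (1.68), Dynll2 (1.58), Dynlt3 (1.57) and Kif3a (1.53). The class was made of different clusters in the libraries: cluster 0 held 224 and 3058 nuclei, with mean depths of 2101 and 2007 UMIs, and cluster 2 held 1248 and 1050, with 4246 and 2962. In cluster 0, 3 of 35 members were past 1.5-fold against 20.5% of genes, and in cluster 2, 2 of 36 against 4.72%. Dynll1 had a ratio of 1.11 (0.952 to 1.3) in cluster 0 and 1.56 (1.43 to 1.7) in cluster 2. In the unnamed cluster 11, with mean depths of 708 and 732 UMIs, its ratio was 1.32 (1.12 to 1.56). The part of depth in these ratios was not tested.

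Kif17 differed most among the members in the dentate granule neurons. It had 63 UMIs (10.9 CPM) for 5XFAD and 316 UMIs (34.2 CPM) in the other library, a ratio of 3.13 (2.38 to 4.17), female mice 4.49 and male mice 2.06. It was also higher per nucleus, 4.28 against 7.69 UMIs per 100 nuclei. Within cluster 0 the ratio was 2.20 (1.14 to 4.86) from 9 and 258 UMIs, and within cluster 2 it was 1.83 (1.24 to 2.7) from 54 and 58 UMIs, so the class value was larger than that of either cluster. In CA1 neurons it was 1.04 (0.817 to 1.33), in CA2/CA3 neurons 0.971 (0.718 to 1.31) and in inhibitory neurons 1.08 (0.745 to 1.57). Subicular or cortical neurons had 14.8 CPM (12.5 to 17.4) and 18.5 CPM (14 to 23.9), the largest ratio among these 4 classes. Over all nuclei it was 1.16 (1.06 to 1.26), female mice 1.71 and male mice 0.76. Of the 1133 striatal-like nuclei of the 5XFAD library, where Kif17 was at 41.8 CPM, 695 were assigned to the male mouse, 4 to the female mouse and the rest to neither.

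In dentate granule neurons Kif26b was lower in the library labelled MR1 knockout, with 937 and 1184 UMIs, a ratio of 0.788 (0.723 to 0.86), female mice 0.738 and male mice 1.04. In the unnamed cluster 8, led by Rmst and Slc17a6, it was higher in the library labelled MR1 knockout, at 82.7 and 179 CPM (the second value above that of the dentate granule neurons), a ratio of 2.16 (1.76 to 2.68). In the 5XFAD library that cluster came mostly from the male mouse, in the other mostly from the female mouse, and mouse and library cannot be told apart there. In it 3 of 36 members were past 1.5-fold, against 13.7% of genes, the others being Dynll1 (1.68) and Dynlt3 (0.658).

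In CA1 neurons (1978 and 2123 nuclei) Kif6 alone of 42 members was past 1.5-fold, against 3.98% of genes. It had 136 and 196 UMIs (12.6 and 24.3 CPM), a ratio of 1.93 (1.54 to 2.41), female mice 2.51 and male mice 1.54. Its oligodendrocyte ratio was 0.834 (0.634 to 1.09). In CA2/CA3 neurons (1032 and 1509 nuclei) Kif21b alone of 41 was past it, against 4.36%. It had 105 and 67 UMIs (14.4 and 8.9 CPM), a ratio of 0.62 (0.449 to 0.85), female mice 0.401 and male mice 0.85. Kif21b was also below 1 in CA1 neurons, at 0.748 (0.604 to 0.924), in inhibitory neurons, at 0.748 (0.572 to 0.978), and in microglia, at 0.575 (0.362 to 0.919), but not in dentate granule neurons, at 1.18 (0.787 to 1.8), or oligodendrocytes, at 1.22 (0.744 to 2.01). Kif16b, a carrier of early endosomes, had 0.81 (0.685 to 0.958) in CA2/CA3 neurons, and a log2 ratio of 0.01 after thinning.

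Subicular or cortical excitatory neurons (1490 and 684 nuclei) had 1 of 41 members past 1.5-fold, Dynll1 at 1.51, against 8.79% of genes. This class too was unevenly made, since its cluster 23 held 417 and 15 nuclei. Dctn2 had a ratio of 1.40 (1.14 to 1.72) there and Kif3a of 1.34 (1.15 to 1.55). Inhibitory neurons (811 and 1343 nuclei) had 0 of 39 past it, against 5.11%. Ranked by the lower bound of the interval, Kif1a came next to Dynll1 there, at 118 (108 to 129) and 148 CPM (138 to 158).

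In glia, the members past 1.5-fold were light chains among those with at least 100 UMIs in the class. Oligodendrocytes (802 and 925 nuclei) had 2 of 29, Dynll1 (468 and 738 CPM, ratio 1.58) and Dynlrb1 (119 and 182 CPM, ratio 1.54), against 7.1% of genes. Their precursors had 2 of 17, the same pair (1.67 and 1.85), against 7.65%. Microglia (246 and 769 nuclei) had 1 of 16, Dynll1 (452 and 764 CPM, ratio 1.69), against 9.52%. Its log2 ratio in microglia was 0.76, and -0.10 among nuclei with at least 1000 genes. Astrocytes (252 and 251 nuclei) had 1 of 11, Dynll1 (324 and 564 CPM, ratio 1.74), against 10.9%. Below that minimum, some members picked after their values were seen were also past 1.5-fold. Kif21b in microglia (given above) was lower, as was Kif13b in astrocytes, with 39 and 16 UMIs and a ratio of 0.479 (0.25 to 0.877). Kif18a in oligodendrocytes had 13 and 2 UMIs, a ratio of 0.188 (0.0206 to 0.832). Kif26b was higher in microglia, with 1 and 16 UMIs, a ratio of 6.99 (1.09 to 293). Further members below the minimum lay past 1.5-fold in either direction and are not listed. Over the 9 classes the Dynll1 ratio ran from 1.37 to 1.78 and the Dynlrb1 ratio from 1.26 to 1.85.

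Gene length went with the ratios. Over all nuclei the 20 tested members spanning under 30 kb had a median log2 ratio of 0.29, and the 34 longer members 0.11. Over all genes tested these medians were 0.18 and 0.06. Across the 54 members, which share the same libraries and are not independent, Spearman's rho between span and log2 ratio was -0.37 (-0.22 across all genes). In oligodendrocytes the medians were 0.35 and -0.02 and rho was -0.62 over 29 members (-0.38 across all genes). In inhibitory neurons rho was 0.00. Dynll1 spans 3.89 kb and Dynlrb1 13.7 kb, while Kif13a spans 181 kb and Dync1i1 302 kb. The split by length was chosen after the values were seen, and its part in the differences was not tested.

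**Figure D5:**
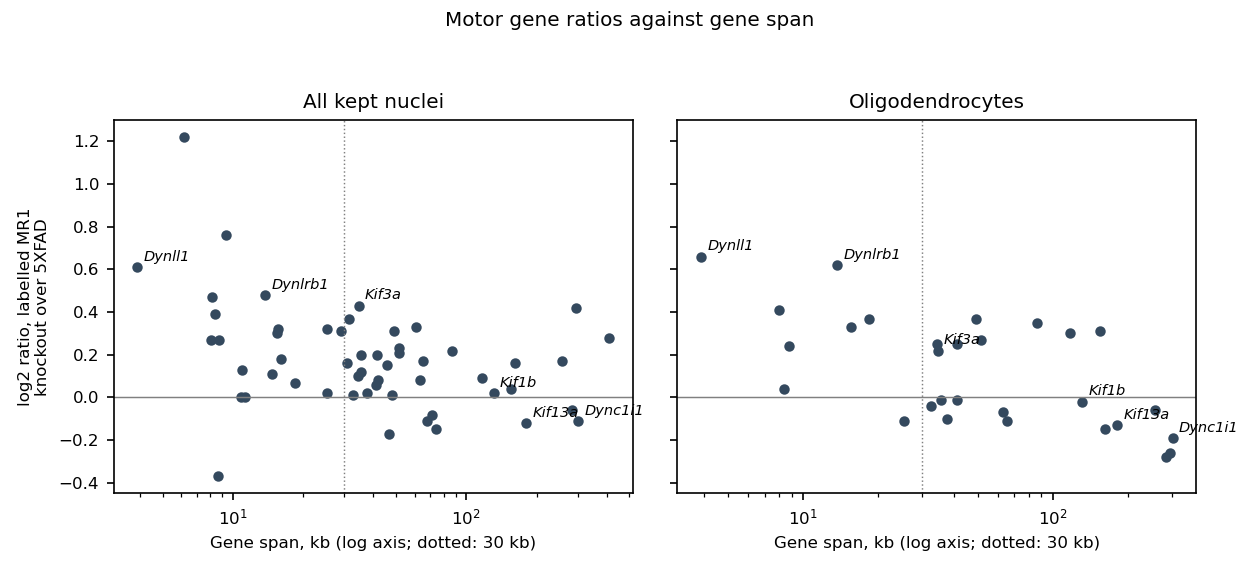
Log2 ratio labelled MR1 knockout over 5XFAD against gene span in kb (log axis, dotted line at 30 kb), for motor genes with at least 100 UMIs, over all nuclei and in oligodendrocytes. Dynll1 (3.89 kb) is high on the left in both panels, and the long genes Kif13a, Kif1b and Dync1i1 lie near or below 0.

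Adaptors and regulators that link motors to cargo lay near the median of all genes. Of a list of them, which also held the Kifc kinesins and further dynactin subunits, 43 were measured over all nuclei. Their log2 ratios had a median of 0.12 (-0.01 with TMM scaling) against 0.12 over all genes. Above 1 were 34 with CPM, against 71.3% of all genes tested, and 20 with TMM scaling. Past 1.5-fold was Hap1 alone, which links huntingtin to dynactin and kinesin-1, against 9.55% of all genes tested. It had 4318 and 7052 UMIs and a ratio of 1.64 (1.58 to 1.7). Female mice had 2.07 and male mice 0.97, and the ratio was 2.70 in the unnamed cluster 8 and 1.07 in dentate granule neurons. The others ranked highest were Capza2, a capping subunit of dynactin, at 1.33 (1.28 to 1.38), the dynein adaptor Bicd2 at 1.40 (1.27 to 1.55) and the kinesin Kifc2 at 1.28 (1.21 to 1.35). Nin, which anchors microtubules at centrosomes, had 0.867 (0.84 to 0.896).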

How the data were processed

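The authors deposited unnormalized UMI counts as whole numbers, 1 matrix per library, already limited to called barcodes. Cell Ranger 7.0.0 made them, per the file headers. Per the submitters' processing notes, mm10 and Seurat were also used, with no role named. Annotation, strand setting and intron counting: not given in the sources used here. Gene positions come from GENCODE M21, which 32158 of the 32285 IDs matched, and all 58 members did.

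Nuclei with at least 500 genes and under 5% mitochondrial UMIs were kept, doublets (20.2% and 21%) were removed with Scrublet (scanpy 1.11.5) at the expected share of 0.8% per 1000 nuclei, and mixed clusters (262 and 438 nuclei) were left out. Both libraries were clustered together (2500 variable genes without motor genes, 40 components, 20 neighbours, leidenalg 0.10.2, resolution 1.5) and named from fixed markers. A nucleus was assigned to the female mouse by 2 or more Xist UMIs without any from the Y chromosome (5293 and 8952), and to the male mouse by 1 or more Y-linked UMIs without Xist (3445 and 3072). Sums of UMIs over the nuclei of a class were divided by its total to give CPM. CPM carry exact Poisson and ratios exact conditional binomial 95% intervals. Log2 ratios used a prior count of 0.5. The calculation was tested on simulated data. Members and gene lists were chosen with earlier results of these data known. Named genes were the main subunits of each role, the 3 highest and 3 lowest members per class by the bound nearest to 1 with the same direction in both sexes, the 3 members highest over their median class, and the 3 highest and 3 lowest adaptors. Alternatives covered scaling (TMM, edgeR 4.0.16), nucleus filters, doublets, mouse, thinning, clustering, minimum and fold.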

Additional observations from a re-analysis of the deposited data

Results flagged for a closer look

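These members had ratios on opposite sides of 1 in the female and male mice, with both counting intervals clear of 1. The difference between the mice was not tested. The share of all genes with such a split was not computed, so the list does not set the members apart from other genes. Over all nuclei the ratio was 1.28 for female and 0.892 for male mice for Kif26b, 1.12 and 0.932 for Kif5c, and 1.71 and 0.76 for Kif17. It was 0.811 and 1.13 for Dync1i1, 1.83 and 0.339 for Kif23, 1.44 and 0.607 for Kif27, and 1.15 and 0.832 for Dynlt1a. The mice also differed in cell makeup: the male mouse of the 5XFAD library held 695 striatal-like nuclei and the other mice 4, 3 and 0, and the female mouse of the library labelled MR1 knockout held 1605 of the nuclei led by Smoc1 and Otof. The part of this makeup in the ratios was not tested.

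Within a class such a split was seen in CA2/CA3 neurons for Kif5c (1.17 and 0.853) and in inhibitory neurons for Kif26b (1.43 and 0.512), Kif1b (1.12 and 0.857) and Kif3a (1.41 and 0.687). In inhibitory neurons the female mice gave 495 and 719 nuclei and the male mice 191 and 260.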

How the results depend on the processing

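No paired analysis was possible because each group was 1 library, and the mice of a library shared a capture. The cause of the shifts below was not tested. For the counts past a fold, the share over all genes was not computed at the other settings. Those counts therefore do not set the members apart from other genes. Of the alternatives for the counts and medians, 182 values stayed near the main one, 25 moved and 2 changed sign. Of those for single genes these numbers were 384, 64 and 4. Over all nuclei the median log2 ratio of the members, 0.16, was 0.03 with TMM scaling and 0.01 in the male mice. The adaptor median, 0.12, was -0.01 with TMM scaling, and the Mr1 log2 ratio, 1.01, was -0.02 after thinning to 1000 UMIs (11062 and 15199 nuclei used, 973 and 1958 left out). The 3 members past 1.5-fold and higher became 5 under 1% mitochondrial UMIs, 0 after thinning, 6 at a minimum of 50 UMIs or of 1 UMI in each library, 10 at the smaller fold tried and 1 at 2-fold. The 0 lower became 2 in the male mice and 1 at the smaller fold tried. Over the classes, the 15 pairs of member and class that were higher became 8 at 1000 genes per nucleus, 23 at a minimum of 50 UMIs, 80 at 1 UMI in each library, 63 at the smaller fold tried and 1 at 2-fold. The 1 lower pair became 2 with TMM scaling, at 1000 genes or in the female mice, 3 with no mitochondrial limit, 0 with doublets kept, after thinning or at 2-fold, 4 at 50 UMIs, 42 at 1 UMI and 8 at the smaller fold tried. Single genes that changed sign were Kif13a over all nuclei (-0.12, and 0.02 under 1% mitochondrial UMIs), Dync1i1 in dentate granule neurons (-0.11, and 0.14 in cluster 0 alone), Kif16b in CA2/CA3 neurons (-0.30, and 0.01 after thinning) and Dynll1 in microglia (0.76, and -0.10 at 1000 genes). The values without clusters held by 1 library, within a single dentate cluster and by gene span were added after seeing the data. Unnamed clusters were not followed through other clusterings. Depth limits the astrocyte, microglial and precursor values most, where 11, 16 and 17 members reached 100 UMIs.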
